A study of Mus musculus with 10 samples.

Results

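Splenic CD8+ cDC1 express a set of mRNAs for proteins that shorten the life of other mRNAs, and 8 of them are described here: Zfp36, Zfp36l1, Zfp36l2, Btg1, Btg2, Zc3h12a, Tob1 and Tob2. They were chosen by gene symbol from the 10767 genes of the deposited mRNA-sequencing table, and 8 of 8 had a row in it. Cells were sorted as live CD11c+MHCII+CD8+CD11b- from spleens of untreated Ppef2+/+ and Ppef2-/- mice between 8 and 13 weeks of age. There were 5 sorts, and each sort gave 1 library per genotype from 3 pooled spleens. The Ppef2-/- mice carry a knockout-first gene trap between exons 4 and 5 of Ppef2, which encodes an EF-hand protein phosphatase, in all cells of the animal. Spleens were digested with enzymes at body temperature before the sort.

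The Zfp36 proteins (Zfp36, also called tristetraprolin, and its relatives Zfp36l1 and Zfp36l2) are zinc finger proteins that bind AU-rich elements in the 3′ untranslated region of mRNAs for cytokines, chemokines and early response genes. They bring in the CCR4-NOT complex, which removes the poly(A) tail, after which the mRNA is decapped and degraded from both ends. Btg1, Btg2, Tob1 and Tob2 belong to the BTG/TOB family, whose shared domain binds the deadenylase subunits Cnot7 and Cnot8 of the same complex, and the Tob proteins also bind the poly(A)-binding protein. Zc3h12a (Regnase-1) is an endonuclease that cuts mRNAs at stem-loops, among them the mRNA of Il6. In dendritic cells and macrophages, the Zfp36 proteins and Zc3h12a limit how much cytokine is made.

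In the reference, the mRNAs of the Zfp36 family carry the element that the family recognises. In GENCODE M21 (GRCm38, the assembly that UCSC calls mm10), the heptamer TATTTAT, written in DNA letters and searched on the transcript strand, occurs 3 times in the 774-base 3′UTR of Zfp36, 3 times in the 1835 bases of Zfp36l1 and 3 times in the 1822 bases of Zfp36l2. Each of these holds the nonamer TTATTTATT, which includes the heptamer, once. Of 1320 genes in the table with a 3′UTR of like length (80 to 125% of its own), 0.833% held as many heptamers as Zfp36, and the shares for Zfp36l1 and Zfp36l2 were 3.55 and 3.43%. Btg2 and Tob2 hold 1 heptamer each, and Btg1, Zc3h12a and Tob1 hold none, although 61% of 3′UTRs as long as that of Btg1 (4166 bases) have at least 1. The stretches below show the element in the members that have it, followed by the mRNAs of Tnf and Ier3, whose levels are given further on. Each is 30 bases on the minus strand, except Ier3, which is on the plus strand, and capitals mark the heptamers.
Zfp36, chr7:28376958-28376987: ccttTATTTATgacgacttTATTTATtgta
Zfp36l1, chr12:80108421-80108450: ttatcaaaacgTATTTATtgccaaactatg
Zfp36l2, chr17:84184913-84184942: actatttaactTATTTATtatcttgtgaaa
Btg2, chr1:134077248-134077277: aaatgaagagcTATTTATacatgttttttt
Tob2, chr15:81849859-81849888: tatcacctgctTATTTATgtacgaggttgg
Tnf, chr17:35199677-35199706: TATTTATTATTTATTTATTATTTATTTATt
Ier3, chr17:35822485-35822514: taattaaTATTTATgTATTTATgtatatcc

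Promoters were searched in the 250 bases upstream of the RefSeq start (GRCm38.p6), which were listed for 7 of the 8 genes (Zfp36l2 had no entry). Both strands were searched for the CArG box and for TGACGTCA, found in the shares given below. The search also took its first part TGACGT alone (in 6.47% of promoters), the AP-1 letters TGANTCA (6.75%), the TATA box letters TATAAA (12.4%) and the letters CCAAT (33.8%). The TATA box letters were found in Zfp36l1, Btg1 and Tob1, the letters CCAAT in the same genes and in Btg2, the AP-1 letters in Zfp36l1, and TGACGT in Btg1 and Btg2. Zfp36 has a CArG box, the letters bound by serum response factor, with its first base 58 bases upstream of the RefSeq start. This window lies inside the span that GENCODE gives for Zfp36 (below), whose start is farther upstream, so its place before the start holds for RefSeq alone. Of 32851 promoters, 1.47% hold such a box on either strand. Btg2 has the cAMP response element TGACGTCA 166 bases upstream, found in 1.55% of the promoters. These windows are shown because both genes are textbook early response genes, and the matched letters are in capitals on the minus strand.
Zfp36, chr7:28379268-28379297: cccaggccgccCCATAAAAGGagaaagctc
Btg2, chr1:134079303-134079332: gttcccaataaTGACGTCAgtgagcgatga

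The genes lie on 8 different chromosomes. Zfp36 (ENSMUSG00000044786.6) spans chr7:28376784-28380253, Zfp36l1 (ENSMUSG00000021127.7) chr12:80107754-80113013, Zfp36l2 (ENSMUSG00000045817.8) chr17:84183931-84187947, Btg2 (ENSMUSG00000020423.6) chr1:134075170-134079120, Zc3h12a (ENSMUSG00000042677.7) chr4:125118423-125127840 and Tob2 (ENSMUSG00000048546.8) chr15:81848272-81858796, all on the minus strand. Btg1 (ENSMUSG00000036478.8) spans chr10:96617006-96622809 and Tob1 (ENSMUSG00000037573.5) chr11:94211454-94215495, both on the plus strand. Each transcript has 2 exons, apart from Zc3h12a with 6. Noncoding genes on the opposite strand share exonic bases with Zfp36 (125), Zfp36l1 (1672), Zfp36l2 (105) and Tob2 (207). None of these antisense genes is in the table, and the library kit does not mark strand, so reads of either partner cannot be told apart.

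Values are normalized counts from the table the authors deposited, and the median gene had a mean of 170 over the 10 libraries. In 10721 genes without a value at the floor of 1, the sum of the Ppef2+/+ and the Ppef2-/- value was constant over the 5 sorts, within a relative 1e-05. The mean of the sort had therefore been removed from each gene. What remains is the difference between genotypes within a sort, and the libraries of a sort lie at equal distance on opposite sides of the gene's mean, so that the spread between sorts is missing from every SD given for deposited values. The 10 libraries summed to between 5295568 and 5482319 normalized counts, and whole reads calculated back for 9611 genes gave between 1394857 and 4404293 reads per library. Ppef2 checked the labels: Ppef2+/+ libraries had 197 ± 32.5 and Ppef2-/- libraries 14.1 ± 17.2 normalized counts (SD, n = 5), lower in 5 of 5 sorts (adjusted p = 0.000121 from limma with sort as a block). Behind these values were 95 to 228 reads in Ppef2+/+ and 0 to 8 in Ppef2-/- libraries. With the sort means restored from reads, the Ppef2-/- level was 2.33 ± 1.88 (SD, n = 5) and the log2 fold change -6.07, compared to -4.78 in the deposited values. Each of the 12 cDC1 markers was in the table, with Wdfy4 at a mean of 28532, Irf8 at 13449, Cd8a at 5684, Clec9a at 4444 and Xcr1 at 3739. The lowest of them were Itgae at 547 and Batf3 at 416. Of the markers of other cells, 1 of 7 for T cells, 1 of 6 for neutrophils and 1 of 5 for NK cells were in the table. So were 6 of 6 for pDCs, 5 of 6 for cDC2, 7 of 10 for macrophages and monocytes and 6 of 8 for erythroid cells. Among these, Lyz2 had a mean of 795, Hmox1 of 474 and Tcf4 of 383. For the Cd3 genes and Ncr1, which define T and NK cells, no value was analysed here.

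Of the 8 decay factors, 5 were among the highest 3% of all genes by their mean normalized count. Zfp36 ranked 32 of 10767 with a mean of 11221, Btg1 46 (8507), Btg2 81 (6288), Zfp36l1 230 (2961) and Zfp36l2 293 (2540). Tob2 followed at rank 1314 (820), Zc3h12a at 3553 (311) and Tob1 at 4821 (204). Together the 8 genes held 0.61% of all normalized counts. In single libraries the rank of Zfp36 moved between 29 and 35, and that of Zfp36l2 between 201 and 447, in values from which the spread between sorts is missing.

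**Figure D1:**
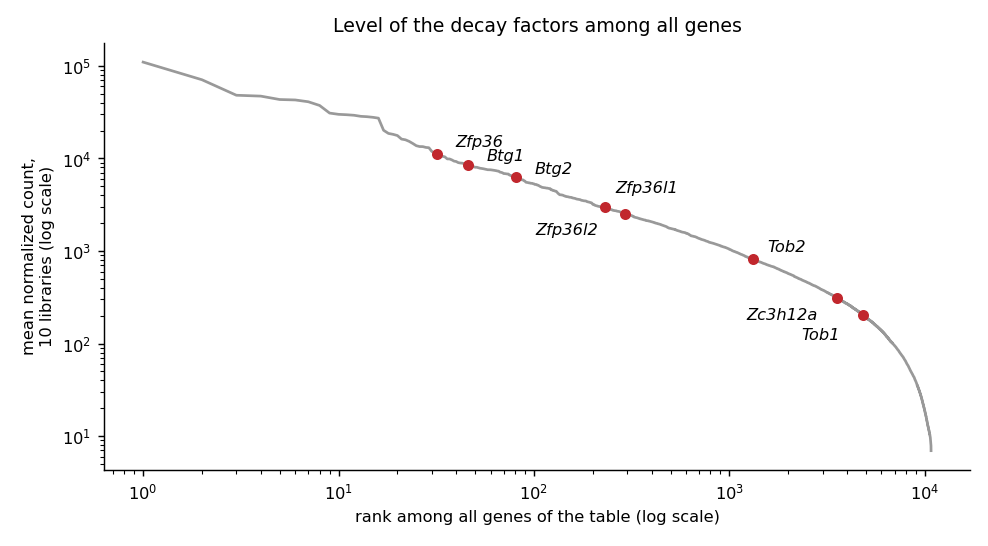
The grey line gives the mean normalized count over 10 libraries of all 10767 genes against their rank, both on log scales, and the red points are the 8 decay factors. Zfp36, Btg1 and Btg2 lie within the first 81 ranks, and Zc3h12a and Tob1 lie where the line bends down, above the median gene.

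Levels of different genes were compared per kilobase of exon, which 10392 genes had. On this scale the order was Zfp36 (3234 normalized counts per kilobase, rank 92), Btg2 (2293, rank 131), Btg1 (1612, rank 178), Zfp36l1 (990, rank 294), Zfp36l2 (719, rank 396), Tob2 (197, rank 1694), Zc3h12a (113, rank 2931) and Tob1 (89, rank 3599), compared to 53.1 for the median gene. Btg1 and Btg2 thus changed places when length was taken into account. The annotated exons of Zfp36 (3470 bases) include a form that keeps the intron, whereas the spliced transcript has 2790 bases. Lengths were taken from GENCODE, whereas the authors counted reads on RefSeq genes. The RefSeq start of Zfp36 lies inside the GENCODE span, so its value per kilobase may be too low. Neighbours in this order did not overlap between any of the 10 libraries in the deposited values. The spread between sorts is missing from these ranges, so this does not show that the order holds in single libraries. For the lowest 3, reads allowed the sort means to be restored, and then Zc3h12a (64.1 to 166 per kilobase) and Tob1 (70.6 to 108) overlapped, with Zc3h12a the higher in 6 of 10 libraries. Tob2 (147 to 251) was above both in 10 of 10 libraries.

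The question asked of these genes was whether the decay factors differ between Ppef2-/- and Ppef2+/+ CD8+ cDC1. None of the 8 passed the test, either at an adjusted p under 0.05 (limma on log2(normalized count + 1) with genotype and sort as terms and Benjamini-Hochberg adjustment over 10767 genes) or at an unadjusted p under 0.05. Their adjusted p-values lay between 0.995 and 0.997 and the unadjusted ones between 0.0577 and 0.662. Over the whole table the adjusted threshold was passed by 1 gene, Ppef2 (0.00929%), and the unadjusted one by 462 genes (4.29%). Of the 8 log2 fold changes, 4 were above and 4 below 0, with a median of -0.01, compared to 0.001 over all genes. None of the 8 had the same direction in 5 of 5 sorts, which 665 genes (6.18%) had. In bulk RNA, a different amount of mRNA per cell and a different share of expressing cells cannot be told apart. The 95% intervals of the 8 fold changes together reached from 0.81 (the lower bound of Zfp36l2) to 1.22 (the upper bound of Zc3h12a). These intervals use variances drawn toward those of genes of like level, so they are too narrow for a gene that varies more. For Zfp36l2, limma without a trend gave a standard error of 0.124 in place of 0.0781, so 0.81 is not a firm bound.

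**Figure D2:**
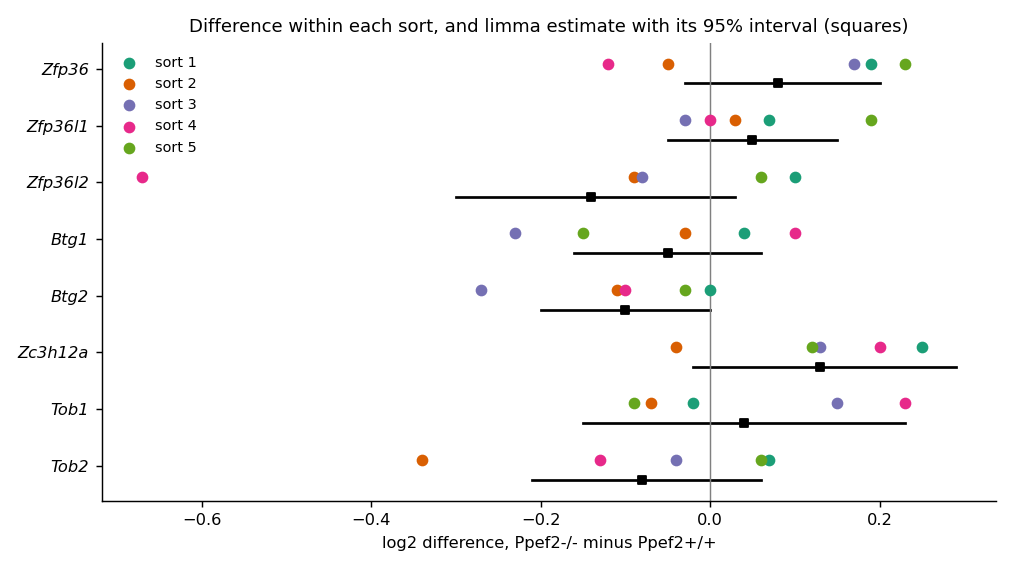
For each decay factor, coloured points give the log2 difference of Ppef2-/- from Ppef2+/+ in each of the 5 sorts, and the black square with its line gives the limma estimate with its 95% interval. All 8 intervals reach 0 and no gene has all 5 points on 1 side of 0 (Btg2 in sort 1 lies at 0.00), with Zfp36l2 in sort 4 (-0.67) the farthest from it.

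Among the Zfp36 family, Zfp36 mRNA in Ppef2+/+ cells was at 10497, 11398, 10554, 11698 and 10339 normalized counts from sort 1 to sort 5. In Ppef2-/- cells it was at 11945, 11044, 11888, 10744 and 12103. Ppef2-/- was the higher library in sorts 1, 3 and 5 and the lower one in sorts 2 and 4, and the genotypes overlapped. The means were 10897 ± 608 and 11545 ± 608 (SD, n = 5), a difference of 5.95%. On the log2 scale the change was 0.08 (standard error 0.06, 95% interval -0.03 to 0.20, adjusted p = 0.995 from limma), and the exact two-sided permutation test that exchanges genotypes within sorts gave p = 0.25, where 5 sorts allow 32 arrangements, too few for a two-sided p under 0.05 (the smallest is 2 of 32). The difference varied between sorts with an SD of 1217 normalized counts, 7.92 times the 154 that counting reads would give.

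For Zfp36l1, a Zfp36 relative also known from B and T cell development, Ppef2+/+ values by sort were 2891, 2929, 2990, 2966 and 2764, and Ppef2-/- values were 3030, 2992, 2932, 2956 and 3158. In sorts 3 and 4 the difference was -57.5 and -9.9 normalized counts, smaller than the counting error of 79, and sort 5 held the lowest Ppef2+/+ and the highest Ppef2-/- value. Its log2 fold change was 0.05 (standard error 0.05, 95% interval -0.05 to 0.15, adjusted p = 0.995 from limma).

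Zfp36l2 had 2455, 2622, 2606, 3120 and 2483 normalized counts in Ppef2+/+ and 2624, 2457, 2473, 1960 and 2597 in Ppef2-/- libraries. In sort 4 the Ppef2-/- library was lower by 0.67 on the log2 scale, whereas the other sorts lay between -0.09 and 0.10. The genotype means were 2657 ± 269 and 2422 ± 269 (SD, n = 5), with a log2 fold change of -0.14 (standard error 0.08, 95% interval -0.30 to 0.03, adjusted p = 0.995 from limma). The exact permutation test within sorts gave p = 0.5. Without sort 4 the estimate was -0.0023, so that this sort alone carries it. Transcripts rich in G and C also deviated in sort 4: among genes with a mean of at least 100, the tenth with the highest GC content had a median log2 difference of -0.11 there and the tenth with the lowest 0.10. Zfp36l2 has 54.8% GC, and with the trend over GC content taken out, its difference in sort 4 was -0.65. The cause of this difference was not tested.

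Btg1, a BTG/TOB protein of resting lymphocytes, was at 8376, 8596, 9182, 8213 and 8957 normalized counts in Ppef2+/+ cells, sort by sort. The Ppef2-/- cells had 8639, 8419, 7833, 8802 and 8058. Ppef2-/- was higher in sorts 1 and 4 and lower in the others, and both genotypes overlapped. Its log2 fold change was -0.05 (standard error 0.05, 95% interval -0.16 to 0.06, adjusted p = 0.995 from limma).

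Btg2, an early response gene and target of p53, had the smallest p of the 8. It had 6278, 6521, 6882, 6498 and 6347 normalized counts in Ppef2+/+ and 6299, 6055, 5694, 6079 and 6230 in Ppef2-/- libraries. The Ppef2-/- library was lower in sorts 2 to 5 and differed by 21.5 in sort 1, less than the counting error of 116. The means of 6505 ± 234 and 6071 ± 234 (SD, n = 5) differed by -6.67%, with a log2 fold change of -0.10 (standard error 0.05, 95% interval -0.20 to 0.00, unadjusted p = 0.0577 and adjusted p = 0.995 from limma). The exact permutation test within sorts gave p = 0.125. With the trend over GC content taken out, a step added after the values had been seen, the unadjusted p was 0.0324 and the adjusted p 0.95.

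The Tob genes, which also bind the poly(A)-binding protein, overlapped between the genotypes too. Tob2 had 800, 915, 832, 856 and 802 normalized counts in Ppef2+/+ and 840, 725, 807, 784 and 837 in Ppef2-/- libraries, with its largest difference in sort 2 and a log2 fold change of -0.08 (standard error 0.06, 95% interval -0.21 to 0.06, adjusted p = 0.995 from limma). Tob1 had 205, 208, 193, 188 and 210 in Ppef2+/+ and 202, 199, 214, 220 and 197 in Ppef2-/- libraries. Here the genotypes overlapped in a narrow range, the log2 fold change was 0.04 (standard error 0.09, 95% interval -0.15 to 0.23, adjusted p = 0.997 from limma), and the SD of the difference over sorts (20) was 0.965 times that of counting reads. Without sort 4 the estimate for Tob1 turned to -0.01.

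Zc3h12a, the endonuclease, had 285, 315, 298, 290 and 298 normalized counts in Ppef2+/+ and 338, 308, 325, 333 and 325 in Ppef2-/- libraries. Ppef2-/- was the higher library in 4 of 5 sorts, and sort 2 went the other way (-7.69 normalized counts). The means of 297 ± 11.6 and 326 ± 11.6 (SD, n = 5) differed by 9.64%, the largest percentage of the 8 genes. The log2 fold change was 0.13 (standard error 0.08, 95% interval -0.02 to 0.29, unadjusted p = 0.0933 and adjusted p = 0.995 from limma), and the exact permutation test within sorts gave p = 0.125. As for Tob1, the SD of the difference was near that of counting reads (0.907 times).

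**Figure D3:**
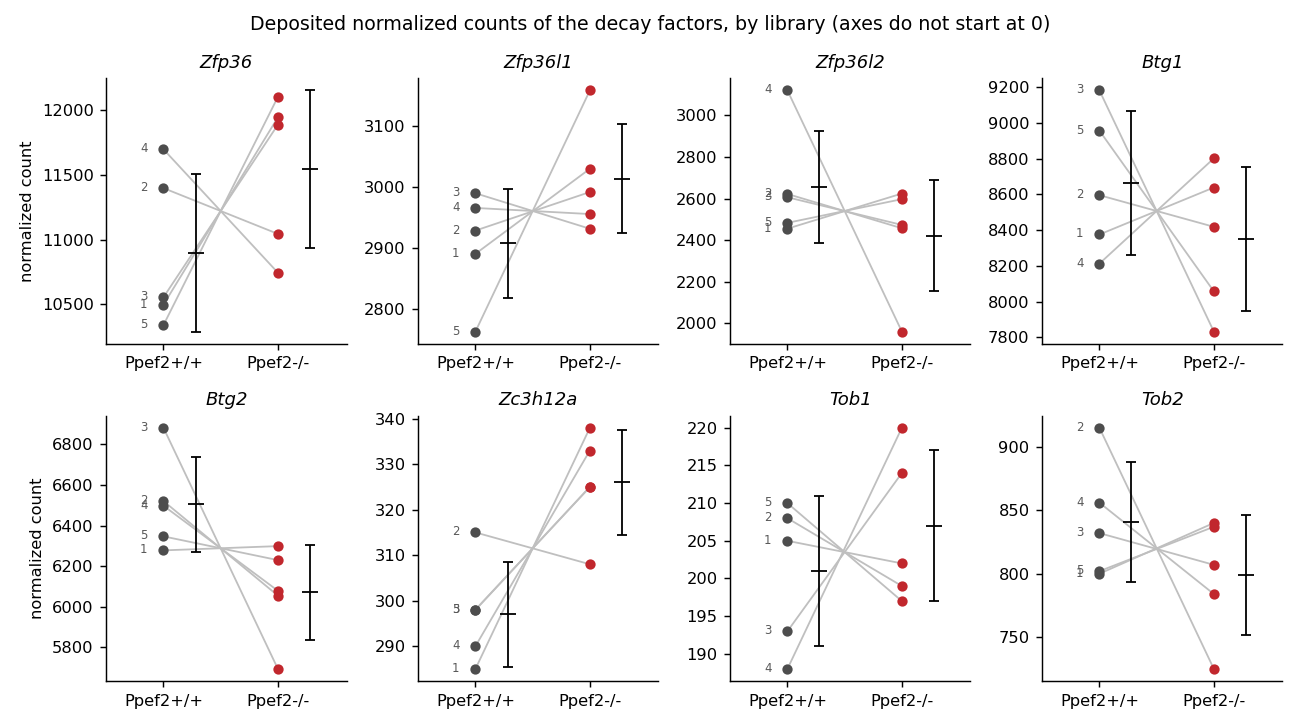
Each panel plots the deposited normalized counts of 1 decay factor in the 5 Ppef2+/+ libraries (dark, with the sort number) and the 5 Ppef2-/- libraries (red), with grey lines joining the libraries of a sort and bars for the mean ± SD. The lines cross at the gene's mean because the sort means were removed, and in each panel the values of both genotypes overlap.

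In a fit without the sort as a term, as the study's methods describe, 103 genes (0.957%) had an adjusted p under 0.05. No decay factor was among them, the smallest adjusted p being 0.127 for Zc3h12a and 0.142 for Btg2 (limma), and 2 of the 8 (Zc3h12a and Btg2) had an unadjusted p under 0.05. Such a fit counts the spread between sorts as 0, and on simulated data it called 184 unchanged genes, compared to 0 with the sort as a block.

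For Zc3h12a, Tob1 and Tob2, whose values were all under 1000, the reads behind the table could be calculated back and the removed sort means restored. From sort 1 to sort 5, Zc3h12a was covered by 129, 166, 286, 439 and 248 reads for Ppef2+/+ and by 495, 370, 488, 425 and 200 for Ppef2-/-. Multiplied by the value of 1 read, this gives 177, 226, 430, 406 and 247 in Ppef2+/+ and 230, 219, 457, 449 and 274 in Ppef2-/-. The mean of both libraries thus varied with the sort, from 203 in sort 1 to 444 in sort 3, a ratio of 2.18, and the SD within a genotype was 113 and 118 in place of the 11.6 of the deposited values. Tob2 moved from 684 (sort 1) to 1005 (sort 4) and Tob1 from 163 (sort 1) to 236 (sort 3), ratios of 1.47 and 1.45. Sorts 3 and 4 were the highest for each of the 3 genes, in both genotypes together. The differences between genotypes were hardly altered: with sort as a block, the log2 fold changes were 0.14 for Zc3h12a, 0.03 for Tob1 and -0.08 for Tob2 (adjusted p = 0.98, 0.998 and 0.986 from limma over 9611 genes). The other 5 decay factors had values of at least 1000, which were not resolved into reads, so how far they vary between sorts was not analysed here.

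**Figure D4:**
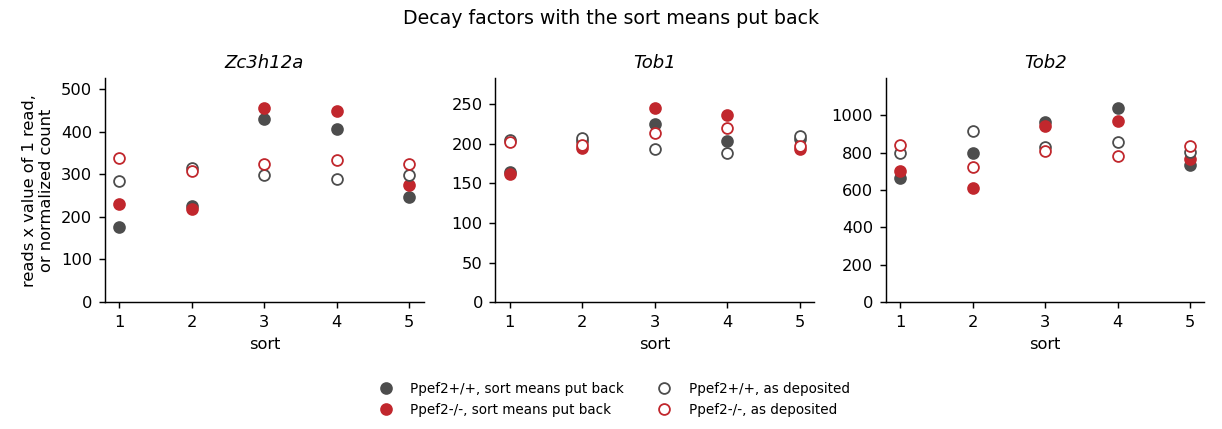
Filled points are reads times the value of 1 read, with the sort means put back, and open points are the deposited normalized counts, for Ppef2+/+ (dark) and Ppef2-/- (red), by sort, on axes from 0. The filled points of Zc3h12a reach from 177 to 457 while the open ones stay between 285 and 338.

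The partners of the decay factors gave no gene past the adjusted threshold with sort as a block. Of the 15 subunits of the CCR4-NOT and PAN2-PAN3 deadenylases in the table, 0 had an unadjusted p under 0.05 in limma with sort as a block, where 2.3% of all genes were higher and 1.99% lower at that threshold. Cnot1, the scaffold, was at 1779 ± 43.4 in Ppef2+/+ cells and 1744 ± 43.4 in Ppef2-/- cells (SD, n = 5). Cnot7, a deadenylase that BTG/TOB proteins bind, had 365 ± 9.43 and 333 ± 9.43 (SD, n = 5) and was lower in 5 of 5 sorts (log2 fold change -0.13, unadjusted p = 0.0737 from limma). The same direction in 5 of 5 sorts was seen in 6.18% of all genes. Cnot8, which they also bind and which was added after its values had been seen, had 476 and 483 (log2 fold change 0.02, unadjusted p = 0.801 from limma). It was higher in 3 of 5 sorts. Pan3 had 984 ± 37.6 and 926 ± 37.6 (SD, n = 5). Among the 21 genes of decapping and decay from the 5′ end, 2 were higher and none lower at an unadjusted p under 0.05. These were Eif4enif1, which links decapping factors to the cap-binding protein (log2 fold change 0.18, unadjusted p = 0.0135 and adjusted p = 0.995 from limma, with an adjusted p of 0.0448 without a sort term), and Lsm4 of the Lsm ring (0.16, unadjusted p = 0.0498 and adjusted p = 0.995). Ddx6 (2149 and 2186 in Ppef2+/+ and Ppef2-/-) and Pnrc1 (757 and 824) were the most abundant of this group. Of the 17 genes of the exosome and the Ski complex, none passed, with Skiv2l at 670 and 671 and Hbs1l at 497 and 457, and Exosc6 at 41.5 and 53.9 had a log2 fold change of 0.39 (unadjusted p = 0.0955 from limma). Kinases and partners that switch the Zfp36 proteins off or on (16 genes) gave no gene past the unadjusted threshold, with Mapk14 at 2179 and 2196, Mapkapk2 at 1290 and 1357, Mapk13 at 44.4 and 53.2 and the 14-3-3 protein Ywhaz at 3465 and 3506.

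Other mRNA-binding regulators of decay were represented by 25 genes. Pabpc1, the poly(A)-binding protein, was at rank 48 with 8551 and 8051 normalized counts in Ppef2+/+ and Ppef2-/-, and Pum2 had 1595 and 1599. Zc3h12c, a paralogue of Zc3h12a, was the 1 gene of this group with an unadjusted p under 0.05. Ppef2+/+ cells had 698 ± 82.2 and Ppef2-/- cells 833 ± 82.2 normalized counts (SD, n = 5), higher in 4 of 5 sorts (log2 fold change 0.26, unadjusted p = 0.00636 and adjusted p = 0.995 from limma). The exact permutation test within sorts gave p = 0.1875 for Zc3h12c. Tnrc6c, a scaffold of microRNA silencing, had 449 and 409 (log2 fold change -0.14, unadjusted p = 0.0822).

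Among mRNAs listed as Zfp36 targets from earlier knowledge, more genes passed the unadjusted threshold. Of 25 AU-rich mRNAs known as Zfp36 targets, 10 had an unadjusted p under 0.05 in limma with sort as a block and all of these were higher in Ppef2-/-, compared to 2.3% of all genes (248), whereas none passed the adjusted threshold. The list's median log2 fold change was 0.12, and 22 of the 25 were above 0. In 9 of the 25 the Ppef2-/- library was higher in 5 of 5 sorts, as in 3.26% of all genes. Il6 is counted among these, although both of its libraries had 9.98 normalized counts in sort 5. It rests on few reads, 1 to 11 in Ppef2+/+ and 8 to 30 in Ppef2-/- libraries, which differ in depth. The list was written with earlier results of these data known, in which Ccl2 was named as higher, and its members are also induced together in maturing dendritic cells. The genes of the list are thus not independent of each other or of these data, and the shares are no test of the list. Decay of these mRNAs was not tested. The 10 genes were Tnf, Ier3, Il12b, Il6, Ccl2, Ccl4, Socs3, Nfkbiz, Plk3 and Lif, all named because of their p-values (Tnf and Ccl2 as the 2 smallest of the list).

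Tnf, the first cytokine mRNA shown to be bound by tristetraprolin, was at 269, 201, 237, 208 and 265 normalized counts in Ppef2+/+ cells, sort by sort, and at 280, 348, 312, 341 and 284 in Ppef2-/- cells. In the deposited values, each Ppef2-/- library was above each Ppef2+/+ library (236 ± 31.5 and 313 ± 31.5, SD, n = 5). With the sort means removed, this follows whenever Ppef2-/- is higher in 5 of 5 sorts, as in 3.26% of all genes. It does not show that the genotypes lie apart once the sort means are put back. Its log2 fold change was 0.41 (standard error 0.10, unadjusted p = 0.000727 and adjusted p = 0.711 from limma). The 3′UTR of Tnf holds 8 heptamers, 5 of them inside the stretch printed above. Ccl2, a chemokine for monocytes, had 15.9 ± 6.19 and 34.4 ± 6.19 (SD, n = 5), from 0, 10, 13, 19 and 29 reads in Ppef2+/+ and 51, 31, 43, 50 and 27 in Ppef2-/- libraries (log2 fold change 1.14, unadjusted p = 0.000979 and adjusted p = 0.835 from limma). In sort 1, no read of the Ppef2+/+ library lies behind its deposited 13.3, since the removal of sort means shifted the value. The search found no heptamer in its 275-base 3′UTR. Ier3, an early response gene, had 78.5 ± 4.58 and 110 ± 4.58 (SD, n = 5), with log2 differences by sort of 0.51, 0.55, 0.61, 0.49 and 0.24. Fos and Dusp1, the most abundant mRNAs of the list (ranks 19 and 38), had log2 fold changes of 0.05 each (unadjusted p = 0.438 and 0.412 from limma). In the fit without a sort term, Ier3 and Lif had an adjusted p under 0.05 (0.0182 and 0.0417 from limma).

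**Figure D5:**
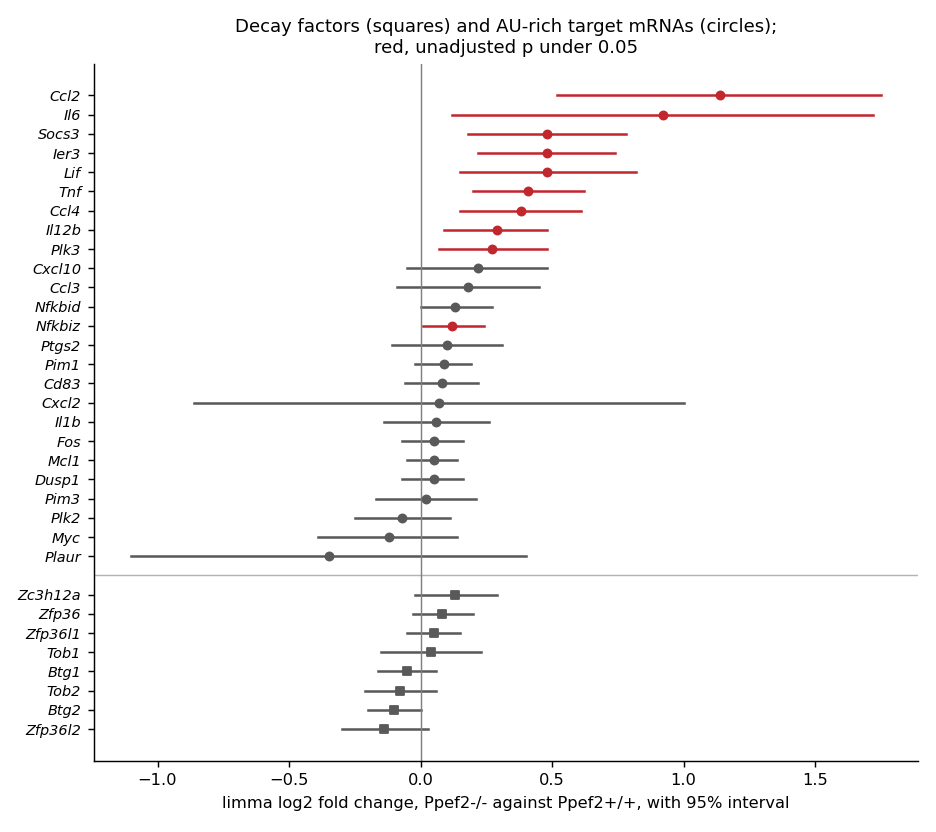
Limma log2 fold changes with 95% intervals are plotted for the 8 decay factors (squares, bottom) and for 25 AU-rich target mRNAs (circles, top), with genes at an unadjusted p under 0.05 in red. Among the targets 10 intervals lie to the right of 0, and none of the decay factors' intervals lies clear of 0.

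The heptamer was also counted in the 3′UTR of every gene. Among 357 genes with 3 or more heptamers in the 3′UTR, the median log2 fold change was 0.016 and 2.8% (10 genes) were higher at an unadjusted p under 0.05. The share was 2.23% of the 6693 genes with none, 2.07% with 1 heptamer, 2.17% with 2 and 2.3% of all genes. Tnf, Ier3, Plk3 and Lif of the target list are among the 10 genes. The split by heptamers was made after the values had been seen. Of the 24 targets with a 3′UTR of at least 100 bases, 75% held the heptamer, compared to 30.5% of such genes in the whole table. The list was made of mRNAs known to be AU-rich, so this share describes the choice of genes and is not a result of these data.

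Zfp36 and Btg2 are early response genes, and the genotype difference of other such genes varied between the sorts. The median log2 difference of 23 immediate early genes was 0.18, -0.06, 0.36, -0.12 and 0.24 in sorts 1 to 5, beside 0.19, -0.05, 0.17, -0.12 and 0.23 for Zfp36 and 0.00, -0.11, -0.27, -0.10 and -0.03 for Btg2. The part of this variation in the values of Zfp36 was not tested. In the list, 8 genes were higher and 2 lower at an unadjusted p under 0.05, where 2.3% of all genes were higher and 1.99% lower. The 2 lower ones were Hspa1a and Hspa1b, which encode heat shock chaperones and were kept in this list. No gene of the list passed the adjusted threshold with sort as a block, and 2 did in the fit without a sort term. The most abundant of the list, Hspa1b and Hspa1a, which encode the inducible Hsp70, were at 32000 ± 2532 and 29473 ± 2286 in Ppef2+/+ cells and at 27967 ± 2532 and 26206 ± 2286 in Ppef2-/- cells (SD, n = 5) (unadjusted p = 0.0108 and 0.0213 from limma). For both, the exact permutation test within sorts gave p = 0.25. Hspa1a and Hspa1b are near-identical copies whose reads may have been split by the counting, so they are not separate results. Klf4 had a log2 fold change of 0.19 (unadjusted p = 0.00502). Of the list of target mRNAs, 3 genes (Fos, Dusp1 and Ier3) are also in this list, and without them 9 of 22 were higher.

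Markers of other cells were compared beside these counts. Summed over the 6 pDC markers, Ppef2+/+ libraries had 1262 to 1353 and Ppef2-/- libraries 1131 to 1221 normalized counts. With the sort means removed, such ranges lie apart whenever the direction is the same in 5 of 5 sorts, as for 6.18% of single genes. Of these markers, Tcf4 and Siglech were lower at an unadjusted p under 0.05 (0.00051 and 0.0282 from limma). The other 4 did not pass, with log2 fold changes of -0.82 for Ly6d, -0.05 for Bst2, 0.03 for Ccr9 and 0.04 for Spib. The 7 macrophage and monocyte markers in the table summed to 1859 to 2065 and 1791 to 1997, the 6 erythroid ones to 183 to 311 and 190 to 319, and the 5 cDC2 markers to 333 to 548 and 354 to 568. Of the macrophage and monocyte markers 3 had a log2 fold change above 0. Ly6c2 alone among them had an unadjusted p under 0.05 (lower, unadjusted p = 0.0387 from limma). Of the erythroid ones 4 were above 0. Hbb-b1 alone among these had an unadjusted p under 0.05 (higher, unadjusted p = 0.0414 from limma). The 12 cDC1 markers summed to 73649 to 76402 and 74286 to 77040, with none at an unadjusted p under 0.05. The part of other cells in the level of the decay factors or their targets was not tested.

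The gene whose 10 log2 values followed each decay factor most closely was found among 6860 genes with a mean of at least 100. It was Gse1 for Zfp36 (r = 0.992), Ncoa6 for Zfp36l1 (0.974), Foxm1 for Zfp36l2 (0.992), Nptn for Btg1 (0.983), Vav3 for Btg2 (0.985), Klf6 for Zc3h12a (0.988), Plekho2 for Tob1 (0.990) and Kif9 for Tob2 (0.993). The closest partner of any of these 6860 genes had a median r of 0.989, so values of this size are usual here. The libraries of a sort are mirror images, which leaves few independent points behind an r over 10 libraries. Among the decay factors, r lay between -0.81 (Zfp36l2 and Tob1) and 0.67 (Zfp36 and Zfp36l1), and Btg1 and Btg2 had 0.66.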

How the data were processed

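CD8+ cDC1 of 5 Ppef2+/+ and 5 Ppef2-/- libraries, grouped by their labels, were analysed. Per their methods, the authors used HISAT to align 50 bp reads (mm10), Partek to count RefSeq genes and DESeq2 to normalize. The submitters' processing notes name TopHat2 2.0.3 and Partek 6.6. The authors deposited a normalized count signal, floored at 1, with genes under 10 in both genotype means removed. The removal of sort means is not stated. All 10 columns were used.

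Differences were tested with limma 3.58.1 in R 4.3.3 on log2(deposited value + 1), two-sided, with a trend and Benjamini-Hochberg adjustment. The sort was a block, which departs from the study's one-way model, because the sort numbers pair the libraries: deviations of both libraries correlated with r = -1.00 in each sort. The blocked fit recovered 81.0% of 200 simulated 2-fold changes among 10685 genes.

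Reads were found as whole multiples of the value of 1 read in each library. Search settings were adjusted after first attempts failed on sort 1 and on simulated data, in which 9265 of 9265 solved genes were then right. Reads were resolved for 89.3% of genes, 16 had no solution and 1140 with a value of at least 1000 were not tried. Counting error of a difference was taken from these values and covers counting alone.

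Genes were matched by symbol to GENCODE M21 (96.5%). Members, lists and the rule for named genes (from each list the 2 highest means and 2 smallest p, and for each member the closest pattern) were chosen with earlier results of these data known. Limma p-values measure the spread between sorts of pooled mice, with the variance of each gene drawn toward that of genes of like level. A gene that varies more than those is then given a smaller p than its own spread would give. Alternatives were another pseudocount, filter, scaling and error model, no log, each sort left out, reads put back, and a GC correction added later. The B cell marker list is not reported here.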

Additional observations from a re-analysis of the deposited data

Results flagged for a closer look

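Dixon's ratio was computed for the highest and the lowest library of each genotype for the 8 decay factors and Ppef2, 18 groups in all, of which chance would set apart about 0.9. It marked 2, both for Zfp36l2 in sort 4. The Ppef2+/+ library of sort 4 had 3120 normalized counts, while the rest of that genotype lay between 2455 and 2622, and the Ppef2-/- library of sort 4 had 1960, while the rest lay between 2457 and 2624. Because the sort means were removed, these are mirror images of a single difference. Its cause was not tested.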

How the results depend on the processing

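For the 8 decay factors, 99 values under other settings were computed, 98 of which kept the direction and stayed above the adjusted threshold. The smallest adjusted p was 0.127, in limma without a sort block. Leaving out each sort moved the log2 fold change of Zfp36 between 0.05 and 0.13, of Zfp36l1 between 0.02 and 0.07, of Zfp36l2 between -0.19 and -0.0023, of Btg1 between -0.09 and -0.01, of Btg2 between -0.13 and -0.06, of Zc3h12a between 0.10 and 0.17, of Tob1 between -0.01 and 0.07, the former without sort 4, and of Tob2 between -0.11 and -0.01.

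The replicate block changed the count of genes over the whole table, which was 1 with it and 103 without it, and no call among the decay factors. The count was 0 without a trend in eBayes (539 at an unadjusted p under 0.05), 2 on reads with the sort means put back, and between 1 and 4 when each sort was left out (2 without sort 1 and 4 without sort 4). Ppef2 lay between -5.45 and -4.25 when each sort was left out and at -6.07 on reads with the sort means put back. Per kilobase of exon, the ranks were 92 for Zfp36, 294 for Zfp36l1, 396 for Zfp36l2, 178 for Btg1, 131 for Btg2, 2931 for Zc3h12a, 3599 for Tob1 and 1694 for Tob2. Leaving out a sort cannot move a rank, since the mean of each sort was removed. Of the target mRNAs, 8 to 10 were higher at an unadjusted p under 0.05 when each sort was left out, and 8 to 13 under the other settings. For Zc3h12a and Tob1 the SD of the difference over sorts was 0.907 and 0.965 times that of counting reads, and the effect of depth on their tests was not tested.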

Other observations

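The direction of Zfp36 in the 5 sorts (higher in Ppef2-/- in sorts 1, 3 and 5, lower in sorts 2 and 4) was shared by 333 of 10767 genes (3.09%) and by 8 of 23 immediate early genes: Fos, Jun, Junb, Jund, Ier5, Dusp1, Nr4a1 and Klf2. Jund had the widest swing, with log2 differences of 0.14, -0.26, 1.11, -0.73 and 0.31 in sorts 1 to 5. Junb had 0.13, -0.20, 0.50, -0.56 and 0.28, and Jun had 0.24, -0.06, 0.51, -0.47 and 0.21. This pattern was noticed after the values had been seen, it was not tested, and its cause was not tested.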
